A study of Mus musculus with 6 samples.

Results

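Ubiquitin-specific proteases (USPs) other than Usp8 and Usp18 were examined in osteoclast cultures in which Usp8 had been reduced. The members were picked by a rule on gene symbols, which was chosen with earlier results of these data known. They were the mouse genes named Usp plus a number, with an optional single letter or an l and a digit after it. The targeted gene Usp8 and the ISG15 protease Usp18 were left out, and longer symbols such as Usp17la did not match. The rule found 48 genes of the 55291 in the table. Of these, 40 had enough counts to be tested and 8 did not. The libraries came from RAW264.7, a mouse macrophage-like line derived from ascites that can be driven to form osteoclasts, the bone-resorbing cells. All 6 cultures had received 50 ng/mL of RANKL, the signal that turns such precursors into osteoclasts, and were harvested on day 4. The shCtrl group (n = 3), labelled wild type, carried a control short hairpin and no change to Usp8, whereas the shUSP8 group (n = 3) had a hairpin that knocks Usp8 down. The labels name no hairpin sequence, no number of hairpins or clones and no separate cultures, so p-values here measure only the spread between libraries, which may be technical.

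USPs are cysteine proteases that cut ubiquitin, a small protein tag, from other proteins or from chains of ubiquitin. They reverse the work of ubiquitin ligases and so set how long many proteins last, where receptors are sorted and how signals such as NF-kB and TGF-beta end. Their catalytic domain is built around a cysteine that lies in a conserved stretch called the Cys box. In osteoclast precursors, RANK signalling passes through TRAF6 and ubiquitin chains, and deubiquitinases such as Cyld are known to limit it.

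The Cys box is shown because it is the feature that unites the family and because 1 member, Usp39, departs from it. Each line gives 48 coding bases around the catalytic codon, 5′ to 3′, with that codon in capitals. The windows were found in the longest open reading frame of the GENCODE M21 transcripts (GRCm38) as the best match to the Usp8 window. The first line is Usp8, for reference, followed by the 4 members that passed the test, Usp4 as a paralogue of Usp15 and Usp11, Usp39, whose box lacks the cysteine, and Usp53, whose box differs most from that of Usp8.
Usp8: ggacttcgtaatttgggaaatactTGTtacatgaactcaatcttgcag
Usp10: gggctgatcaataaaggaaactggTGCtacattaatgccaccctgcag
Usp5: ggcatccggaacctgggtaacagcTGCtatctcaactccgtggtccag
Usp15: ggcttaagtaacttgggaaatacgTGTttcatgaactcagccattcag
Usp11: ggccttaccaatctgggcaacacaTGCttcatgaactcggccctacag
Usp4: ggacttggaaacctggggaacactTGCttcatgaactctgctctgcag
Usp39: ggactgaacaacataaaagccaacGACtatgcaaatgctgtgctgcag
Usp53: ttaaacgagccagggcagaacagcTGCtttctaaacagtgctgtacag

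A cysteine codon (TGT or TGC) stood at the marked place in 47 of the 48 members. Usp39, a splicing factor that carries the USP fold, had an aspartate codon there. Of the 16 residues encoded by each window, the members shared a median of 12 with Usp8, from 5 in Usp53 to 16 in Usp49. Usp10 shared 10, Usp5 11, Usp15 12, Usp4 and Usp11 13 each, and Usp39 7. The marked codon of Usp10 lies at chr8:119947152-119947154 in exon 5 of 14, on the plus strand. That of Usp5 lies at chr6:124822579-124822581 in exon 8 of 20, on the minus strand. That of Usp15 lies at chr10:123146815-123146817 in exon 8 of 22, on the minus strand. That of Usp11 lies at chrX:20713373-20713375 in exon 7 of 21, on the plus strand.

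The libraries were of nearly equal depth, with 19973522 to 20213939 expected counts (estimated fragments per gene) each. The 48 members together took 0.243 to 0.245% of them in shCtrl and 0.247 to 0.278% in shUSP8. Those shares are of unscaled totals. In CPM (counts scaled to library size by TMM factors) the sums of the members overlapped, at 2490 to 2534 in shCtrl and 2431 to 2692 in shUSP8. All 9 osteoclast markers were measured, with a summed level of 13419 to 13835 CPM in shCtrl and 11141 to 11498 CPM in shUSP8. In shUSP8, where 17.8% of all genes tested rose and 14.9% fell, 5 of these 9 fell and none rose. Of 7 macrophage markers, 4 rose and 2 fell, with sums of 4262 to 4444 CPM in shCtrl and 5763 to 6334 CPM in shUSP8. Within these sums Lyz2 went from a mean of 852.6 to 2699.0 CPM, whereas Cd68 went from 1840.5 to 1434.7 and Csf1r from 1382.1 to 1213.4. The other rises, in Cd14, Itgam and Adgre1, started from a mean of 151.9 CPM or less. Of these calls, that of Ctsk (-0.15) held under only 4 of 18 alternatives and that of Csf1r (-0.19) under 11 of 18. Of the 7 lymphocyte markers, 5 were at 0 counts in every library, and the sum of 5 neutrophil markers was at most 0.878 CPM, with Elane and Ly6g at 0 and S100a8 the only one tested (called higher, under 9 of 17 alternatives). The 7 stromal and epithelial markers summed to 1.52 to 11.0 CPM in shCtrl and 1.47 to 2.24 CPM in shUSP8. The part of these changes in osteoclast and macrophage markers in the USP results was not tested, and fewer cells of a type cannot be told apart from less RNA per cell.

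The targeted gene was low in every knock-down library. Usp8 had 656, 720 and 718 counts in the shUSP8 libraries (here and in what follows in the order of their numbers, 1 to 3) and 2785, 2561 and 2645 in the shCtrl libraries. The groups did not overlap. Usp8 fell by 2.00 ± 0.06 on the log2 scale (SE; edgeR quasi-likelihood test, Benjamini-Hochberg adjusted p = 1.47e-10), which leaves 0.25 of the control level. Usp50, the one member whose gene overlaps Usp8 (on the opposite strand of chromosome 2), was not tested: it had 5, 1 and 7 counts in shCtrl and 2, 2 and 1 in shUSP8.

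Control cells expressed most of the family. On the scale of TPM, a relative abundance that corrects for transcript length, 25 of the 40 tested members had a mean of at least 10 TPM in shCtrl, 14 lay from 1 to under 10, and Usp27x, a histone H2B protease, was at 0.997 ± 0.122 TPM (SD, n = 3). Their median was 14.1 TPM, against 13.5 TPM over all 12440 genes tested. A typical member was thus at the level of a typical tested gene, and a few members lay well above.

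The highest member was Usp14, the protease that trims ubiquitin chains at the proteasome, with 87.3, 81.4 and 77.3 TPM in the shCtrl libraries (mean 82.0 ± 4.99, SD, n = 3). Usp5, which takes apart free ubiquitin chains so that ubiquitin can be reused, followed with 82.2, 81.4 and 70.4 TPM (78.0 ± 6.55). The ranges of this pair overlapped, so their order was not resolved. Next came Usp19, an enzyme anchored in the endoplasmic reticulum, at 68.2 ± 2.63 TPM, Usp4 at 62.2 ± 0.779 TPM and Usp15 at 57.5 ± 1.66 TPM. Usp4 and Usp15 are related enzymes that act on TGF-beta receptors and SMAD proteins. Neighbours from Usp5 down to the sixth member did not overlap: the lowest library of each lay above the highest library of the next.

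These 5 members held 41.1% of the summed TPM of the family in shCtrl, and the first 10 held 59.4%. Next in order were Usp7, which stabilises Mdm2 and p53, at 35.7 ± 2.88 TPM, Usp1, which acts on Fancd2 and PCNA, at 33.7 ± 11.4 TPM, Usp9x at 29.4 ± 1.44 TPM, Usp39 at 28.0 ± 0.957 TPM and Usp25 at 27.9 ± 0.803 TPM. Along the whole order, 28 of 39 neighbouring pairs overlapped, so positions in the middle of the family are approximate. Among the lower members were Usp11 at 3.47 ± 0.304 TPM (position 37 of 40), Usp49 at 1.84 ± 0.225 TPM and Usp54 at 1.69 ± 0.146 TPM.

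**Figure D1:**
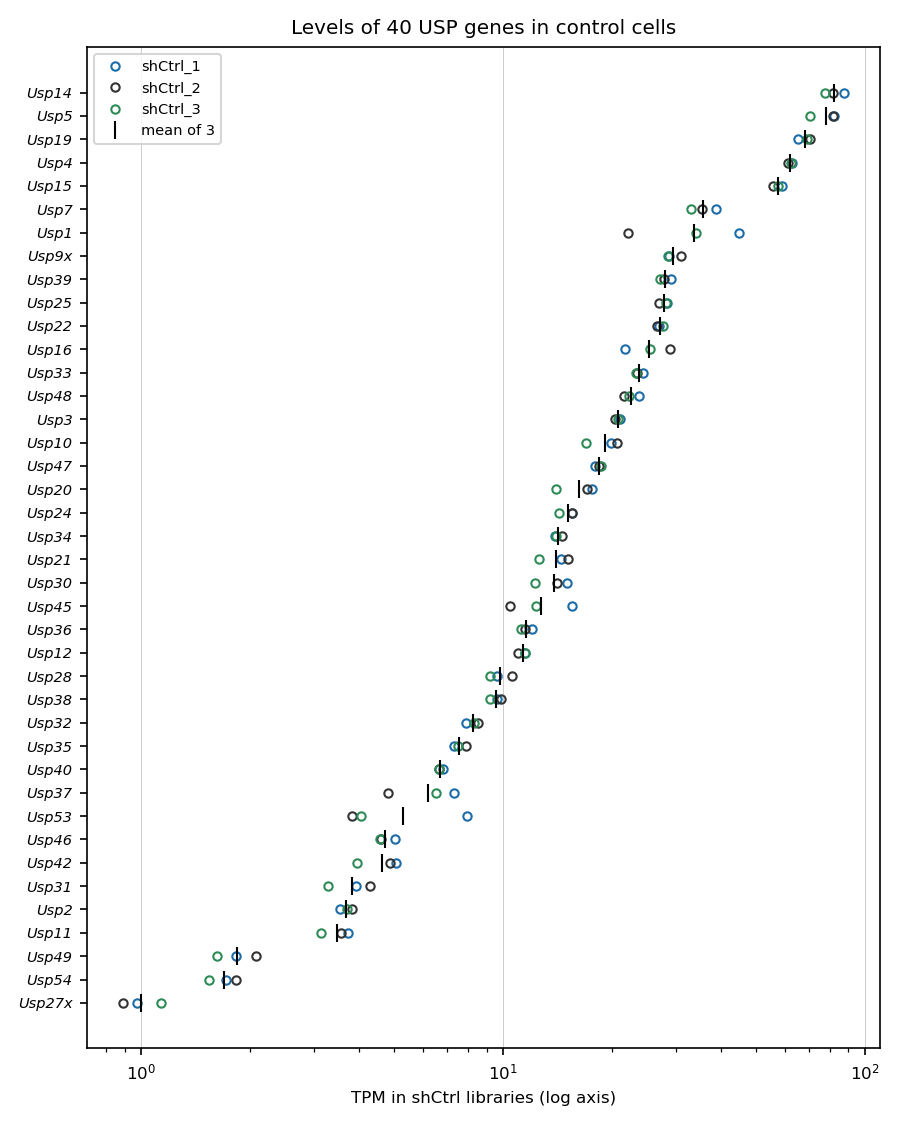
TPM (log axis) of the 40 tested members in the 3 shCtrl libraries (circles) with their mean (vertical bar), ordered by mean. Usp14, Usp5, Usp19, Usp4 and Usp15 stand above the rest, and Usp1 and Usp53 are spread most between libraries.

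Usp1 and Usp53 were spread across the control libraries in TPM but not in counts. Usp1 had 44.9, 22.2 and 34.1 TPM in the controls, yet 956, 1024 and 1098 counts. Its counts per TPM, which stand for the length RSEM assigned to the gene, differed up to 2.17-fold between libraries. Over all 6 libraries this ratio differed up to 2.25-fold for Usp53, a protein of cell junctions, and 1.80-fold for Usp16, which acts on histone H2A. In all, 5 of the 40 members (12.5%), with Usp28 and Usp49 among them, differed by over 1.5-fold across the 6 libraries, against 10.5% of 11304 genes. Within shCtrl alone the ratio differed 2.17-fold for Usp1 and 1.98-fold for Usp53, so their TPM levels in control cells are less certain than their counts. There it differed 1.46-fold for Usp37, 1.40-fold for Usp45, 1.24-fold for Usp16, 1.22-fold for Usp28 and 1.11-fold for Usp49.

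The 8 remaining genes of the family did not have enough counts to test. Usp26, a germ-line protease, Usp43, Usp51 and Usp9y, the Y-linked copy of Usp9x, were at 0 counts in all 6 libraries. Usp13, the paralogue of Usp5, had 5 counts in shUSP8_1 and none elsewhere, and Usp29 had 1 count in shUSP8_2. Usp44 had 0 to 2 counts per library, and Usp50 is described above. At this depth, transcripts of these genes were not detectable or barely so.

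Of the 40 members tested, 3 rose (7.5%: Usp10, Usp5 and Usp15), 1 fell (2.5%: Usp11) and 36 did not pass the test (edgeR, adjusted p under 0.05). Over all 12440 genes tested, 17.8% rose and 14.9% fell, so in the main analysis the shares of the members lay below the background in both directions. For rises this depended on the setting: without shUSP8_1, 8 of 40 members were called higher, a share not below the background of 18.7%. Usp18, a USP relative that the rule leaves out, rose by 4.42 ± 0.15 on the log2 scale (SE; edgeR adjusted p = 7.36e-10), from 1.14 ± 0.331 to 24.4 ± 2.32 CPM. The members' log2 fold changes ran from -0.75 to 0.45 with a median of 0.04, against -0.01 over the other 12400 genes tested. Every shUSP8 library lay above every shCtrl library in 5 members (Usp10, Usp5, Usp12, Usp20 and Usp36; 12.5%, background 24.6%) and below in 4 (Usp11, Usp4, Usp22 and Usp37; 10.0%, background 23.1%). Scaling mattered for the small changes: with library totals in place of TMM factors 10 of 40 members were called higher, a share near the background of 25.0%. With the same scaling 1 was called lower (background 9.42%). The share of all calls that were higher was then 72.6%, against 54.4% with TMM factors.

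**Figure D2:**
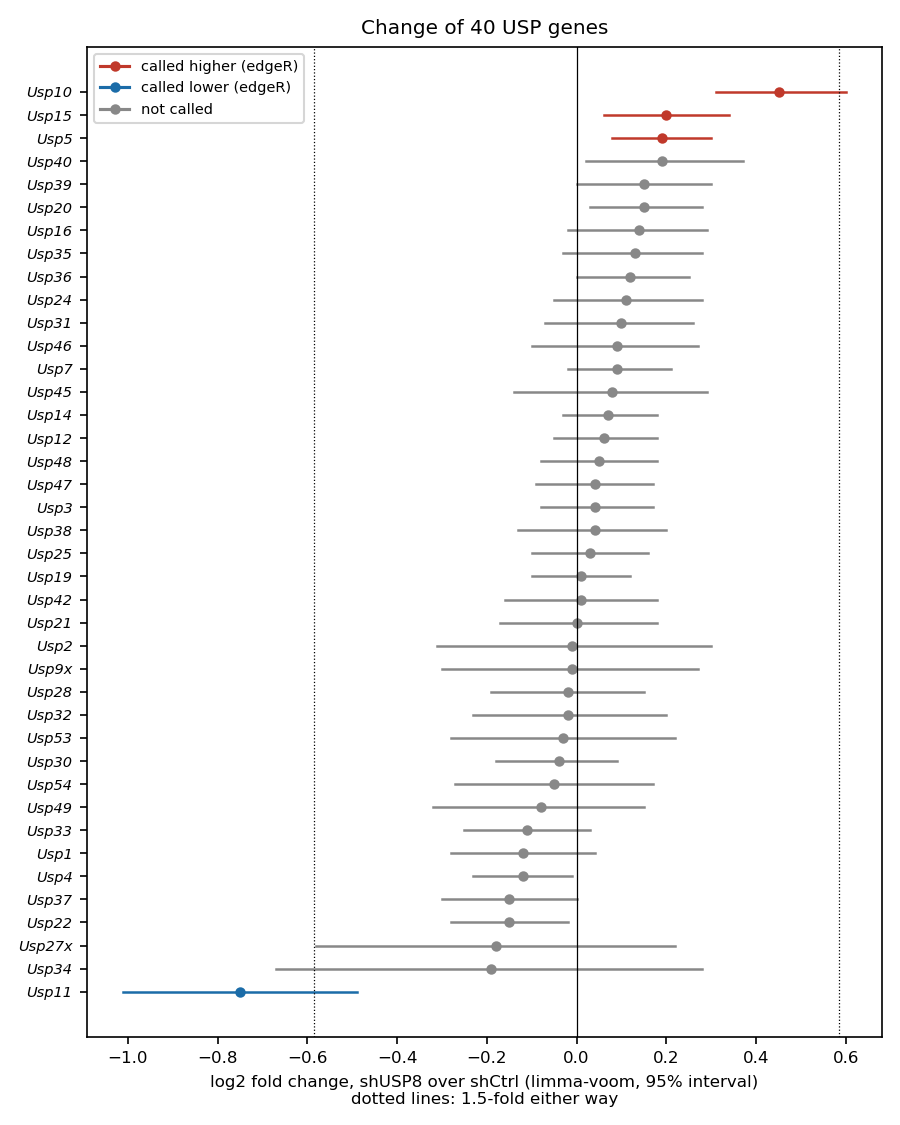
Log2 fold change of shUSP8 over shCtrl for the 40 tested members, with 95% intervals from limma-voom; colours mark the edgeR call and dotted lines 1.5-fold either way. Usp10 and Usp11 stand apart at the ends, and Usp34 has an interval past the dotted line without a call.

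Usp10 showed the largest rise. It binds the stress-granule proteins G3bp1 and G3bp2, acts on p53 and removes ubiquitin from ribosomal proteins of the small subunit. The gene lies at chr8:119910360-119957560 on the plus strand, where the annotated gene Gm20388 overlaps it on the same strand. How RSEM divided reads between this pair was not examined. It had 814, 845 and 732 counts in shCtrl and 1078, 1154 and 1197 in shUSP8. All 3 knock-down libraries were above all 3 controls, with a mean of 40.6 ± 2.5 CPM in shCtrl and 55.6 ± 2.92 CPM in shUSP8 (SD, n = 3 each). The log2 fold change was 0.45 ± 0.07 (SE; edgeR adjusted p = 2.13e-04), with a limma-voom 95% interval of 0.31 to 0.60. It stayed called under every alternative tried, with values of 0.37 to 0.53. On the TPM scale Usp10 had 19.9, 20.6 and 16.9 in shCtrl and 24.9, 26.4 and 29.4 in shUSP8, again without overlap. Its partners G3bp1 (0.01) and G3bp2 (0.10) were not called on the log2 scale (edgeR adjusted p = 0.853 and 0.123).

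Usp11 showed the only fall. This enzyme, a paralogue of Usp4 and Usp15, is known for its part in DNA repair with Brca2. The gene lies at chrX:20703906-20720539 on the plus strand. It had 204, 188 and 174 counts in shCtrl and 114, 134 and 105 in shUSP8, so the groups did not overlap. Its mean went from 9.61 ± 0.675 to 5.72 ± 0.684 CPM (SD, n = 3 each). The log2 fold change was -0.75 ± 0.11 (SE; edgeR adjusted p = 3.57e-04), with a limma-voom interval of -1.01 to -0.49. Usp11 is a low member, and on log2(TPM + 1) with limma-trend the change was -0.41 with an adjusted p of 0.074. There the TPM values were 3.72, 3.55 and 3.13 in shCtrl and 2.09, 3.08 and 2.02 in shUSP8, with shUSP8_2 just under the lowest control.

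Usp5 and Usp15 rose by smaller amounts. Usp5 lies at chr6:124815019-124829484 on the minus strand and had 3589, 3572 and 3349 counts in shCtrl and 4353, 4161 and 4029 in shUSP8. All 3 knock-down libraries lay above the controls, and the log2 fold change was 0.19 ± 0.05 (SE; edgeR adjusted p = 0.0131). The call for Usp5 was lost without shCtrl_2 (0.20, adjusted p = 0.0505) or shCtrl_3 (0.17, adjusted p = 0.0551) and with effective-length offsets (0.17, adjusted p = 0.0691). Usp15, at chr10:123105006-123196995 on the minus strand, had 1828, 1828 and 1995 counts in shCtrl and 2092, 2454 and 2261 in shUSP8. After scaling, shUSP8_1 at 102.1 CPM lay below shCtrl_3 at 103.1 CPM, so its groups overlapped. Its log2 fold change was 0.20 ± 0.07 (SE; edgeR adjusted p = 0.0336). That call was lost with offsets (adjusted p = 0.0654) and without any of shCtrl_1 (0.128), shCtrl_2 (0.142), shUSP8_2 (0.0952) or shUSP8_3 (0.0911), each an adjusted p from edgeR. The annotated genes that overlap Usp15 and have a row in the table held at most 2 counts in a library.

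**Figure D3:**
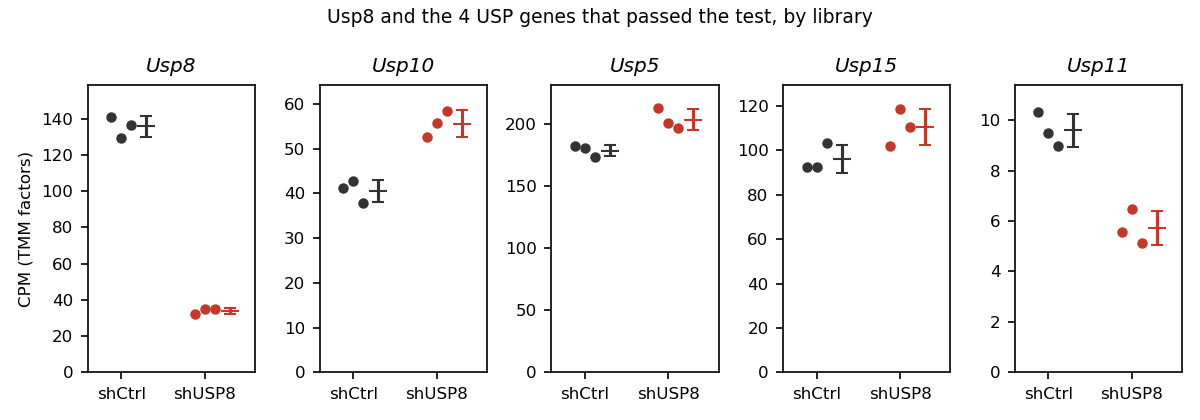
CPM with TMM factors of Usp8 and of the 4 members that passed the test, with 1 point per library and the mean with SD beside each group; every axis starts at 0. Usp8 falls to 0.25 of its control level, Usp10 and Usp11 are separate between groups, and the points of Usp15 overlap.

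Usp15, Usp4 and Usp11 are paralogues that share the domain layout before the protease domain, so their balance is given by library as a description. Usp15 had 8.96, 9.72 and 11.5 counts for each count of Usp11 in shCtrl and 18.4, 18.3 and 21.5 in shUSP8. A rise of this ratio follows from the calls of Usp15 and Usp11. Usp4 had 16.6 to 19.7 counts for each count of Usp11 in shCtrl and 25.6 to 30.2 in shUSP8. Usp15 had 0.54 to 0.582 counts for each count of Usp4 in shCtrl and 0.651 to 0.716 in shUSP8. Usp4 itself had 3387, 3347 and 3427 counts in shCtrl and 3212, 3426 and 3170 in shUSP8, with a log2 fold change of -0.12 ± 0.05, and was not called (edgeR adjusted p = 0.087), although its 3 shUSP8 libraries lay below its 3 controls in CPM. Reads shared between close paralogues were divided by RSEM, and no correction for that was made here.

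Beyond Usp5, the members of ubiquitin recycling and the proteasome comprised Usp14 and the untested Usp13. Usp14 had 2538, 2442 and 2413 counts in shCtrl and 2604, 2766 and 2770 in shUSP8, a log2 fold change of 0.07 ± 0.05 that did not pass the test (edgeR adjusted p = 0.286). Its proteasome partner Psmd2 was at -0.05 (adjusted p = 0.479).

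Of the 10 members tied to p53, DNA damage and replication, 8 were tested, with Usp10 called higher, Usp11 lower and 6 not called. That is 12.5% each way, against 17.8% higher and 14.9% lower over all genes tested. Usp7 was at 0.09 (edgeR adjusted p = 0.207) and Usp1 at -0.12 (0.229). Usp28, which binds 53BP1, was at -0.02, Usp45, which acts on Ercc1, at 0.09, Usp47, an enzyme of base excision repair, at 0.04 and Usp48 at 0.05, all log2 fold changes with adjusted p of 0.523 or more. Usp12 (0.06) and Usp46 (0.09), which like Usp1 are activated by Wdr48, were not called, and Wdr48 was at 0.07 (adjusted p = 0.313).

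None of the 8 tested members that act on histones or in the nucleolus passed the test, where 17.8% of all genes rose and 14.9% fell. Usp22, the protease of the SAGA complex, came nearest, with 1863, 1743 and 1968 counts in shCtrl and 1751, 1791 and 1711 in shUSP8. It was at -0.15 ± 0.06 (edgeR adjusted p = 0.0623), and its sign turned on the TPM scale (0.06). The others were Usp3 at 0.04, Usp16 at 0.14, Usp21 at 0.01, Usp36 at 0.12, Usp42 at 0.01, Usp49 at -0.09 and Usp27x at -0.18. Usp36, which works in the nucleolus, had no overlap between groups in CPM and an adjusted p of 0.129. Of the SAGA partners of Usp22, Atxn7l3 was at 0.00 (adjusted p = 0.979) and Eny2 at -0.20 (0.172), while Atxn7l2 fell by 0.54 on the log2 scale (SE 0.11, adjusted p = 0.00283). Atxn7l2, which had 164 to 205 counts in shCtrl and 128 to 138 in shUSP8, was the only call among 13 binding partners tested (7.69%, against 14.9% lower and 17.8% higher over all genes). Its call was lost on log2(TPM + 1) in limma-trend (-0.30, adjusted p = 0.0835).

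The mitochondrial members are of interest because the series title names mitochondrial regulation. Usp30, which sits in the outer mitochondrial membrane and opposes Parkin-driven removal of mitochondria, had 645, 646 and 663 counts in shCtrl and 681, 682 and 625 in shUSP8. Its log2 fold change was -0.04 ± 0.06 (edgeR adjusted p = 0.649; limma-voom interval -0.18 to 0.09). Usp35 had 432, 457 and 396 counts in shCtrl and 506, 473 and 490 in shUSP8, at 0.13 ± 0.07 (edgeR adjusted p = 0.191; interval -0.03 to 0.28). In CPM the groups overlapped for each of them.

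Among the 7 members of NF-kB, TGF-beta, Wnt and innate signalling, Usp15 alone was called (14.3% higher, against 17.8% over all genes tested). Usp25, which acts on TRAF proteins, was at 0.03, Usp31 at 0.10, Usp38, which acts on Tbk1, at 0.04 and Usp2 at 0.01 (edgeR adjusted p from 0.359 to 0.973). Usp34, which acts on axin in the Wnt pathway, had 2440, 2390 and 2292 counts in shCtrl and 1642, 2569 and 2440 in shUSP8. The low value of shUSP8_1 gave it the widest interval of the 40 members, -0.67 to 0.28 in limma-voom, at a log2 fold change of -0.17 ± 0.18 (edgeR adjusted p = 0.540). Without shUSP8_1 the value was 0.01.

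None of the 5 tested members of endosomes, Golgi and endoplasmic reticulum, the compartments in which Usp8 itself works, passed the test. Over all genes tested 17.8% were called higher and 14.9% lower, so the lack of calls among 5 genes says little about this group. Usp20, which with Usp33 acts in receptor recycling, had 1281, 1213 and 1121 counts in shCtrl and 1365, 1402 and 1437 in shUSP8. It did not overlap between groups, at 0.15 ± 0.06 (edgeR adjusted p = 0.058). Usp33 was at -0.11 (adjusted p = 0.209), Usp19 at 0.01 (0.878) and Usp32 at -0.01 (0.947). Usp9x had 3254, 3306 and 3413 counts in shCtrl and 2819, 3879 and 3754 in shUSP8, so that shUSP8_1 lay below and the other two above every control, at a log2 fold change of 0.00 ± 0.12.

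The remaining members also stayed within the test. Of those tied to the cell cycle, Usp40 was at 0.20 (edgeR adjusted p = 0.077), Usp24 at 0.12 (0.251) and Usp37, which acts on cyclin A, at -0.15 (0.120). Of those whose protease activity is lost or altered, Usp39 was at 0.15 (0.0953), Usp53 at -0.02 (0.908) and Usp54 at -0.05 (0.763). Among the 36 members not called, 5 had an unadjusted p under 0.05: Usp20, Usp22, Usp40, Usp4 and Usp39. The limma-voom 95% interval of the fold change lay within 1.5-fold either way for 35 of the 36, the exception being Usp34, and within 1.3-fold for 34, the further exception being Usp27x. The interval left out no change in some of them, as in Usp20 (0.03 to 0.28), Usp22 (-0.28 to -0.02) and Usp40 (0.02 to 0.37) on the log2 scale, although edgeR did not call them. The counts of intervals and of unadjusted p were not made over all genes tested. The 36 were selected by not being called, so these counts show nothing particular to the family.

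The knock-down libraries differed from each other by transcript length. Over all genes tested, the median log2 ratio of shUSP8_1 to the mean of the other 2 was 0.12 in the class of genes with the shortest transcripts and -0.20 in those whose longest transcript has at least 8000 nt. In shUSP8_2 the same medians were -0.11 and 0.12, the opposite trend, and in shUSP8_3 they were -0.01 and 0.08. Of the 40 members, 31 (77.5%) were lower in shUSP8_1 than in the mean of shUSP8_2 and shUSP8_3, against 49.5% of all genes tested. All 6 members with a longest transcript of at least 8000 nt (Usp49, Usp31, Usp24, Usp15, Usp9x and Usp34) were lower there, with a median log2 ratio of -0.23, where the 611 genes of that class had the median given above. The lowest ratios were -0.60 in Usp34, -0.43 in Usp9x, -0.41 in Usp53, -0.36 in Usp45 and -0.34 in Usp32. As a description, Spearman's rho between transcript length and this ratio was -0.57 across the 40 members and -0.45 across 12400 genes, all from the same libraries. The part of transcript length in the members' values was not tested.

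Without shUSP8_1, 8 members were called higher (Usp10, Usp15, Usp16, Usp20, Usp24, Usp40, Usp45 and Usp5), where 18.7% of all genes were called higher, and Usp11 remained the only one lower, where 16.5% of all genes were. The count of rises thus rested in part on this library, and the rise of Usp10 (0.49) and the fall of Usp11 (-0.73) did not.

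**Figure D4:**
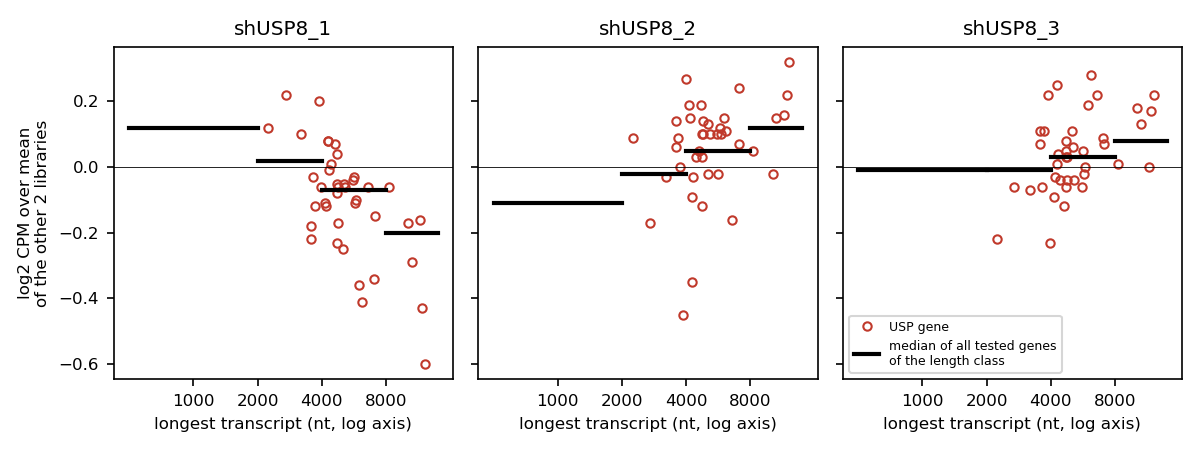
Log2 ratio of CPM in each shUSP8 library over the mean of the other 2, against the longest annotated transcript (log axis); circles are members and bars the median of all tested genes in each length class. Long members lie low in shUSP8_1, with Usp34 at -0.60, and not in the other libraries.

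A list of deubiquitinases that the rule did not select, with relatives of their folds, included both rises and falls. Its 48 genes include 8 USP-fold relatives whose symbols the rule does not match. These are Cyld, Pan2, Uspl1 and the genes Usp17la to Usp17le, which had too few counts to test. The list also holds members of the JAMM fold that are not active proteases, such as Psmd7. Of the 48, 40 were tested, 5 rose (12.5%) and 6 fell (15.0%), against 17.8% and 14.9% of all genes. The difference between this list and the members was not tested. Among the UCH enzymes, Uchl1, which is best known from neurons, rose from 10, 5 and 11 counts in shCtrl to 64, 65 and 64 in shUSP8 (log2 fold change 2.81 ± 0.26, edgeR adjusted p = 6.08e-06). Its relative Uchl3 fell, from 1101, 1122 and 1167 counts to 771, 826 and 853 (-0.54 ± 0.06, adjusted p = 3.19e-05). The other rises were in Josd1 (0.33), Mindy1 (0.30), Otud3 (0.38) and Psmd7 (0.23), and the other falls in Otud7b (-0.25), Yod1 (-0.48), Zranb1 (-0.25), Atxn3 (-0.19) and Mindy2 (-0.23). Uchl3, Josd1, Mindy1 and Psmd7 stayed called under all 18 alternatives. Otud3 and Yod1 stayed called under 16 of 18, Otud7b under 15, Mindy2 under 13, Zranb1 under 12 and Atxn3 under 9. On log2(TPM + 1) in limma-trend, Uchl1 was at 1.07 and not called (adjusted p = 0.286), Zranb1 was at -0.09, and Atxn3 turned sign (0.10). Cyld, the USP-fold enzyme known to limit RANK signalling, was at -0.14 and was not called (adjusted p = 0.0935).

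Ubb, which encodes ubiquitin itself, had 17200, 16988 and 18060 counts in shCtrl and 26652, 25654 and 24635 in shUSP8. The groups did not overlap, and it rose by 0.49 ± 0.06 on the log2 scale (SE; edgeR adjusted p = 3.58e-05). Rps27a, which encodes ubiquitin fused to a ribosomal protein, was at -0.18 ± 0.08 (adjusted p = 0.114) and was not called. Neither ubiquitin-activating enzyme, Uba1 or Uba6, was called.

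Promoter windows, from 250 bases before to 50 after the start site, were found in RefSeq (GRCm38.p6) for 37 of the 48 members and searched on either strand. The GC box GGGCGG was in 25 of the 37 (67.6%) and in 35.7% of 32851 windows of all genes of the same length. The ETS core CCGGAA was in 11 (29.7%, against 14.9%), among them Usp11, whose window holds it at 2 places. The antioxidant response motif TGACNNNGC was in 9 (24.3%, against 12.4%), among them Usp10. The interferon response motif, a pair of GAAA with any 2 bases between, was in 1 (2.7%, against 3.44%), Usp49. These matches describe the windows and are not binding sites. The windows of all genes were not limited to genes tested here, and the members were not compared with tested genes alone.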

How the data were processed

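RNA-seq of 6 RAW264.7 libraries was read from a pair of tables. The expected counts, as deposited by the authors, are RSEM estimates of fragments per gene, and 7.16% are not whole. The TPM values, as deposited, were scaled by the authors for effective length. RSEM, DESeq2 1.28.1 and mm10 are named per the submitters' processing notes; the aligner, annotation release and strand setting are not given in the sources used here. Columns named KO were taken as shUSP8, the only other genotype, and those named WT as shCtrl.

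Rounded expected counts entered edgeR 4.0.16 in R 4.3.3. Genes were kept by filterByExpr at a minimum count of 10 and a minimum total of 15, scaled by TMM and tested by the robust quasi-likelihood F test over all genes. Calls had a Benjamini-Hochberg adjusted p under 0.05. SE is the absolute log2 fold change over the square root of F. CPM values use TMM factors. Intervals are from limma 3.58.1 (limma-voom). Length offsets used expected count over TPM where TPM was at least 0.5 in every library. Alternatives were other normalisations and filters, DESeq2 1.42.0, limma-voom, unrounded counts, offsets, limma-trend with a pseudocount of 1 or of 0.1 TPM before log2, leaving out each library, and a replicate block. Only the main edgeR fit was run on simulated counts, which had no trend with transcript length, and the outcome is not used here. Tables and figures used Python 3.11.15, pandas 2.3.3, numpy 2.4.6, scipy 1.17.1 and matplotlib 3.10.9.

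The members and lists were chosen with earlier results of these data known. All members are accounted for. Some genes that the lists select are not reported here. Called members are named with library values, others with fold changes, with the 5 highest in TPM, the members not tested and up to 4 called genes of each list by smallest p (of a list without calls, the 2 with most CPM). Partners, Cyld and promoter matches named beyond this were chosen after their values were seen. Positions came from GENCODE M21, in which 98.7% of the table's transcripts were found. Pairs of libraries within a group differed by a chi-square per gene of 2.26 to 18.3, so none was a duplicate.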

Additional observations from a re-analysis of the deposited data

How the results depend on the processing

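The knock-down of Usp8 and the rise of Usp10 kept their direction and their call under all alternatives. The fall of Usp11 kept its call under all except limma-trend on log2(TPM + 1) (-0.41, adjusted p = 0.074) and log2(TPM + 0.1) (-0.54, adjusted p = 0.0775). Members called higher are given with the share of all genes called higher in the same setting. They were 3 in the main analysis (17.8%), 10 with library totals alone (25.0%) and 1 with effective-length offsets (11.9%). With log2(TPM + 1) and log2(TPM + 0.1) they were 5 each (19.1% and 19.2%). Leaving out each library in turn gave 1 to 8, with 1 without shCtrl_2 (13.3%) and 8 without shUSP8_1 (18.7%). Members called lower, with the share of all genes called lower, were 1 in the main analysis (14.9%) and 2 without a filter on low counts (9.88%). With log2(TPM + 1) and log2(TPM + 0.1) they were 0 (4.02% and 3.95%). Leaving out each library gave 1 to 2, with 2 without shCtrl_2 (9.81%), with Usp22, or without shUSP8_2 (14.8%), with Usp4. By an unadjusted p under 0.05, 1 member was lower on either TPM scale in limma-trend. The 4077 genes called in all became 2499 with effective-length offsets. Fewer genes were tested there (11304), and the shares called were also smaller. With offsets 11.9% of genes were called higher and 10.3% lower, against 17.8% and 14.9% in the main analysis. The share of calls that were higher was 54.4% in the main analysis, 72.6% with library totals and 82.6% with log2(TPM + 1), where the median over all genes was 0.07 and 0.11 on the log2 scale. Of the 5 highest members by TPM, 3 were among the 5 highest by CPM, which is not corrected for length. Except where said, the cause of these differences was not tested.

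The labels give both groups the same numbers but do not call them pairs. Deviations of same-numbered libraries from their group means correlated at -0.007, 0.078 and -0.054, and not every library correlated best with its own number. With the replicate block 3 members were higher and 1 lower. Of the 12440 genes tested in that setting 3711 were called in all, with 16.2% higher and 13.6% lower.

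Signs turned only in members that were not called, at these log2 fold changes. With library totals they were 0.06 in Usp28, 0.03 in Usp30, 0.06 in Usp32, 0.05 in Usp53 and 0.03 in Usp54. With limma-voom Usp2 was at -0.01. With log2(TPM + 1) they were 0.10 in Usp1, 0.06 in Usp22, 0.27 in Usp28, 0.15 in Usp30, 0.02 in Usp4, 0.11 in Usp49 and 0.11 in Usp54. With log2(TPM + 0.1) the same genes were at 0.11, 0.06, 0.29, 0.16, 0.02, 0.15 and 0.16. With offsets they were -0.06 in Usp21, 0.17 in Usp28, 0.04 in Usp30, -0.03 in Usp42, 0.04 in Usp49 and 0.04 in Usp54. Over the fits that each left out a library, they ran from -0.02 to 0.03 in Usp19, -0.06 to 0.14 in Usp2, -0.07 to 0.06 in Usp21, -0.02 to 0.09 in Usp25, -0.09 to 0.02 in Usp28, -0.09 to 0.10 in Usp32, -0.28 to 0.01 in Usp34, -0.03 to 0.11 in Usp38, -0.03 to 0.06 in Usp42, -0.14 to 0.01 in Usp49, -0.12 to 0.10 in Usp53 and -0.12 to 0.01 in Usp54. Of 720 settings of single members, 641 kept direction and side of the threshold, 21 gained a call and 10 lost one.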
